A study of Elaeis guineensis with 38 samples.

Results

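H3K4me3 and H3K27me3 were compared within mantled oil palms (Elaeis guineensis), that is, clonal palms labelled as bearing fruit of the mantled phenotype. The lists were chosen by the labels, as the peak lists of the immunoprecipitated libraries whose palm was labelled mantled. This gave 9 of the 19 peak lists of the series, which has 38 samples with the inputs. The H3K4me3 group held 4 lists, from palms 687, 754, 765 and 770, and the H3K27me3 group held 5, from the same palms and from palm 673, for which no H3K4me3 list was analysed here. Each list came from chromatin of frond 0, a leaf, immunoprecipitated with a mouse monoclonal antibody to 1 of the marks, and was called against input chromatin of that palm. No treatment, age or engineered allele was given. All the palms were clones of 1 ortet, the mother palm, so they are separate plants of 1 source genotype. The tissue was leaf, whereas mantling is seen in flowers and fruit. Palms were the replicates within a mark. The main tests of list measures and the test of same-mark overlap exchanged the marks among the 9 lists as if these were independent. This left out that 4 palms supplied a list of each mark. The p-values of these tests give the share of such exchanges with a difference at least as large. Fisher's exact test of regions likewise took the 9 lists as independent.

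Histone H3 trimethylated at lysine 4 (H3K4me3) is deposited around the start sites of transcribed genes and usually forms short, sharp peaks. Trimethylation at lysine 27 (H3K27me3) is laid down by Polycomb repressive complexes over silent developmental genes and in plants usually spans whole gene bodies. Regions where both marks are found in a tissue are often called bivalent, although a mixture of cells with either mark gives the same picture in bulk chromatin. Mantling is a somaclonal abnormality of tissue-cultured palms, in which carpel-like organs form in the place of stamens.

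The libraries were of very unequal depth. After duplicate removal, the H3K4me3 libraries of palms 687, 754, 765 and 770 held 229258, 534988, 3670206 and 783650 fragments, a 16-fold range. The H3K27me3 libraries of palms 673, 687, 754, 765 and 770 held 10374962, 253624, 1541992, 1865140 and 963067, a 40.9-fold range. The H3K4me3 library of palm 765 and the H3K27me3 library of palm 673 stood apart as the deepest of their groups. Inputs held 7091506 to 12176346 fragments. A further measure bears on all that follows. The marks are named throughout as the labels give them. Some lists resembled lists of the other mark more than their own, as described with the overlaps, and as no gene could be placed on the scaffold pieces the labels were not checked against genes of known marking. Whether the labelled mark holds for each library was not tested, and every direction between the marks rests on the labels. Local background, computed from the pileup and fold enrichment of each peak, was expressed as a multiple of the average coverage that the library would give over the caller's genome size of 221 Mb. Peaks above 10 times the average made up 29.5% to 72.9% of a list for H3K4me3 and 52.5% to 79% for H3K27me3.

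The first question was whether the marks differed in the number of peaks and in the length covered. The H3K4me3 lists of palms 687, 754, 765 and 770 held 296, 1168, 3910 and 580 peaks. The H3K27me3 lists of palms 673, 687, 754, 765 and 770 held 1581, 472, 762, 1348 and 918. The H3K4me3 counts spanned those of H3K27me3 on both sides, with palm 687 below and palm 765 above every H3K27me3 list. On average a list held 1488 ± 1655 H3K4me3 peaks (SD, n = 4) or 1016 ± 447 H3K27me3 peaks (SD, n = 5). The ratio of geometric means was 1.01, and the two-sided exact permutation test gave p = 0.992, with an adjusted p of 0.992 over the 4 tests of this kind. The smallest p that the 126 splits of 4 against 5 lists allow is 0.00794. Palm 765 supplied 65.7% of the 5954 H3K4me3 peaks, and without its H3K4me3 list the ratio was 0.628. Without the H3K4me3 list of palm 687 it was 1.48.

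Within palms, the number of H3K4me3 peaks was 0.627 times that of H3K27me3 in palm 687, 1.53 times in palm 754, 2.9 times in palm 765 and 0.632 times in palm 770. H3K4me3 was the longer list in 2 of 4 palms. The corresponding ratios of fragments were 0.904, 0.347, 1.97 and 0.814, so that the deeper library had more peaks in palms 687, 765 and 770 but not in palm 754. Divided by the fragments of each library, peak number gave a ratio of geometric means of 1.95 over all lists (two-sided exact permutation p = 0.238, adjusted p = 0.476). This division takes peak number to rise in proportion to depth. The deepest library, H3K27me3 of palm 673, had 152 peaks per 1000000 fragments, against 494 to 1861 in the other H3K27me3 lists. Restricted to peaks of 3-fold enrichment or more, with palm 673 left without a peak, the ratio was 2.53 (two-sided exact permutation p = 0.286).

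The length covered was likewise highest for H3K4me3 of palm 765 and lowest for H3K4me3 of palm 687. H3K4me3 peaks covered 108675 bp in palm 687, 490898 bp in palm 754, 2501420 bp in palm 765 and 219995 bp in palm 770. H3K27me3 peaks covered 1573684 bp in palm 673 and 236496, 516780, 949700 and 566343 bp in palms 687, 754, 765 and 770. H3K27me3 covered more of the genome in 3 of the 4 palms with both marks, and palm 765 was the exception, at 2.63 times as much H3K4me3. The ratio of geometric means was 0.652 (two-sided exact permutation p = 0.54, adjusted p = 0.992). It was 0.358 without the H3K4me3 list of palm 765 and 1.02 without that of palm 687.

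Peaks of H3K27me3 were listed as wider in every palm with both marks. The median width of H3K4me3 peaks was 315, 342, 477 and 310 bp in palms 687, 754, 765 and 770. That of H3K27me3 peaks was 328, 451, 498 and 391 bp in the same palms and 770 bp in palm 673. The H3K27me3 lists of palms 673 and 765 lay above all H3K4me3 lists, and the other 3 fell within the H3K4me3 range. The means were 361 ± 78.5 bp (SD, n = 4) and 488 ± 170 bp (SD, n = 5), and the ratio of 0.762 did not pass (two-sided exact permutation p = 0.206, adjusted p = 0.825). Without the H3K4me3 list of palm 765 it was 0.691. Paired by palm, H3K4me3 was narrower in 4 of 4 palms with a mean ratio of 0.863, and the exact sign-flip test over 4 palms gave 0.125, the smallest p it can give. H3K4me3 was called in the narrow mode of the peak caller and H3K27me3 in its broad mode, so the mark and the calling mode cannot be told apart in any width.

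The wide peaks showed the same contrast more plainly. Peaks over 1000 bp made up 1.01%, 2.83%, 15.8% and 1.21% of the H3K4me3 lists of palms 687, 754, 765 and 770. They made up 11.7%, 21.7%, 23.7% and 17.4% of the H3K27me3 lists of these palms and 37.9% of that of palm 673. Every palm with both marks had the higher share in H3K27me3, but the H3K4me3 list of palm 765 lay among the H3K27me3 lists. The widest H3K4me3 peak was 5559 bp long, in palm 765, on p5.00_sc00928_p0004 from 1906 to 7464, with a fold enrichment of 6.07. The widest H3K27me3 peak was 6870 bp long, in palm 673, on p5.00_sc00147_p0005 from 6656 to 13525, with a fold enrichment of 1.32. Both came from the deepest library of their mark.

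Signal was compared as pileup, the number of fragments stacked at a position, per 1000000 fragments of the library. Pileup refers to the summit of a narrow H3K4me3 peak and to the mean over a broad H3K27me3 peak. The mark and the calling mode therefore cannot be told apart in any ratio of pileup. The median scaled pileup of H3K4me3 peaks was 91.6, 65.4, 18.8 and 90.6 in palms 687, 754, 765 and 770. That of H3K27me3 peaks was 34.9, 70, 69.3, 37.4 and 50 in palms 673, 687, 754, 765 and 770. The H3K4me3 lists of palms 687 and 770 lay above all H3K27me3 lists and that of palm 765 lay below all of them. The means were 66.6 ± 34.1 (SD, n = 4) and 52.3 ± 16.8 (SD, n = 5), with a ratio of 1.13 (two-sided exact permutation p = 0.833, adjusted p = 0.992). Palms 687 and 770 had the higher value in H3K4me3, at 1.31 and 1.81 times that of H3K27me3, and palms 754 and 765 the lower, at 0.944 and 0.503 times. The ratio was 0.96 without the H3K4me3 list of palm 687 and 1.63 without that of palm 765. The deepest library of each mark had the lowest median. Among the other libraries the order did not follow depth. H3K4me3 of palm 770 was deeper than that of palm 754 but had the higher median. H3K27me3 of palm 754 was likewise deeper than that of palm 770 and had the higher median. Without the scaling to fragments the ratio was 0.584.

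The fold enrichment over local background, the authors' own value for each peak, refers to the summit where a peak is narrow and to its mean where it is broad. Its median was 3.92, 4.09, 4.18 and 2.79 in the H3K4me3 lists of palms 687, 754, 765 and 770. In the H3K27me3 lists of palms 673, 687, 754, 765 and 770 it was 1.44, 3.98, 1.89, 2.28 and 2.82. The H3K27me3 list of palm 673 held 0 peaks with a fold of at least 3, with a highest value of 2.6. At the other end, 66.9% of the peaks in the H3K27me3 list of palm 687 reached a fold of 3, close to the 68.2% of the H3K4me3 list of that palm. These values describe peaks within lists and were not tested between marks. Among H3K27me3 lists the shallowest library, of palm 687, had the highest median fold and the deepest, of palm 673, the lowest. Among H3K4me3 lists the deepest library, of palm 765, had the highest. Whether depth accounts for differences in fold between palms was not tested.

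**Figure D1:**
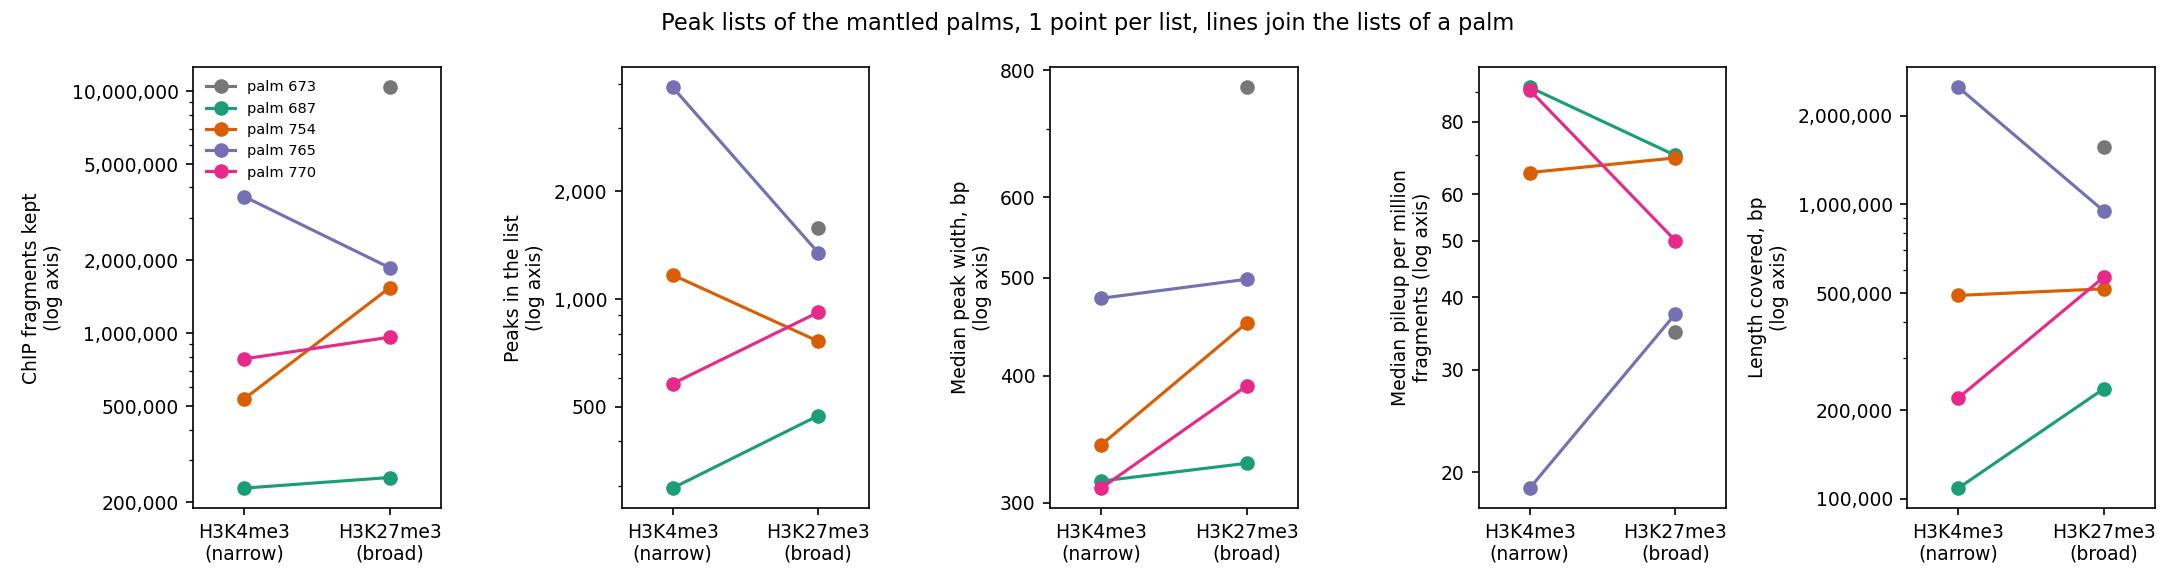
Each panel plots 1 value per list on a log axis, with H3K4me3 at the left and H3K27me3 at the right and a line joining the lists of a palm: fragments kept, peaks, median peak width in bp, median pileup per 1000000 fragments, and length covered in bp. The width lines rise from left to right in all 4 palms, whereas in the other panels the lines of the 4 palms run in different directions.

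The next question was whether lists of 1 mark resembled one another more than lists of the other mark. Overlap was the percentage of the peaks of the shorter list that shared at least 1 bp with a peak of the other list. Over pairs of different palms, lists of the same mark overlapped by 51.5% on average and lists of different marks by 56.5%. The difference of −4.97 percentage points did not pass the test for a higher overlap within a mark (one-sided exact permutation p = 0.825 over 126 assignments of the marks). It was −2.25 points without the H3K4me3 list of palm 765, −7.52 without the H3K27me3 list of that palm, and −0.122 with the mark labels of palm 754 exchanged. Overlap was 17.7% to 59% in the 6 pairs within H3K4me3, 35.8% to 76.4% in the 10 pairs within H3K27me3, and 25.3% to 83.5% in the 16 pairs of different mark and palm.

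By the Jaccard index (bases in both lists over bases in either), 6 of 9 lists were closest to a list of the other mark. For an H3K4me3 list 5 of the 8 possible partners were of the other mark, and for an H3K27me3 list 4 of 8. The count was 4 of 8 lists without the H3K4me3 list of palm 765 or without that of palm 754. Without any other single list it was 5 to 7 of 8, highest without the H3K27me3 list of palm 765. By the same index the median was 0.0779 among pairs of H3K4me3 lists, 0.191 among pairs of H3K27me3 lists and 0.115 among pairs of different mark and palm, and the mean was higher within a mark by 0.0152 (one-sided exact permutation p = 0.278). The index therefore did not place lists of different marks closer on average. The H3K4me3 list of palm 754 was closest to the H3K27me3 list of palm 770, at 0.349. H3K4me3 of palm 765 was closest to H3K27me3 of palm 673, at 0.294, and the H3K4me3 list of palm 770 to the H3K27me3 list of palm 687, at 0.311. Of these 3 pairs, each of different palms, both lists had each other as the closest. The H3K27me3 lists of palms 754 and 765 were closest to one another, at 0.335, and the H3K4me3 list of palm 687 was closest to that of palm 770, at 0.234.

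The overlaps of H3K4me3 of palm 765 divided the other lists. It held 82.9%, 83.5% and 86.6% of the peaks of the H3K27me3 lists of palms 673, 754 and 765, but 29.7% and 31.9% of those of palms 687 and 770. It held 44.6%, 17.7% and 59% of the peaks of the H3K4me3 lists of palms 687, 754 and 770, which lay below the first 3 values and on both sides of the other pair. Palm 754, in turn, had an H3K4me3 list that held 74.2% and 66% of the H3K27me3 peaks of palms 687 and 770, and 32.3% of those of its own palm.

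The spread of overlaps was wider among peaks with a local background of at most 10 times the average, a subset chosen after the data were seen. Of such peaks, 84.8% of the shorter list overlapped between H3K4me3 of palm 765 and H3K27me3 of palm 673, 78.9% between both marks of palm 765, and 64.4% between H3K4me3 of palm 765 and H3K27me3 of palm 754. Pairs with almost no overlap were found across the marks, at 1.34% and 4.28% between H3K4me3 of palm 765 and H3K27me3 of palms 687 and 770, and 2.38% between H3K4me3 of palm 754 and H3K27me3 of palm 673. They were also found within a mark, at 1.52% between the H3K4me3 lists of palms 754 and 765, and 2.23% between the H3K27me3 lists of palms 673 and 687. For H3K4me3 of palm 754 the overlap was 57.6% and 53.2% with H3K27me3 of palms 687 and 770, and 53.5% with H3K4me3 of palm 770. Among H3K27me3 pairs the overlap also reached 53.6% between palms 687 and 770, 40% between palms 754 and 765 and 35.4% between palms 673 and 765. High and low overlaps at low background thus occurred both within and across the labelled marks. The difference between same-mark and different-mark overlap in this subset was not past the test (one-sided exact permutation p = 0.762).

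**Figure D2:**
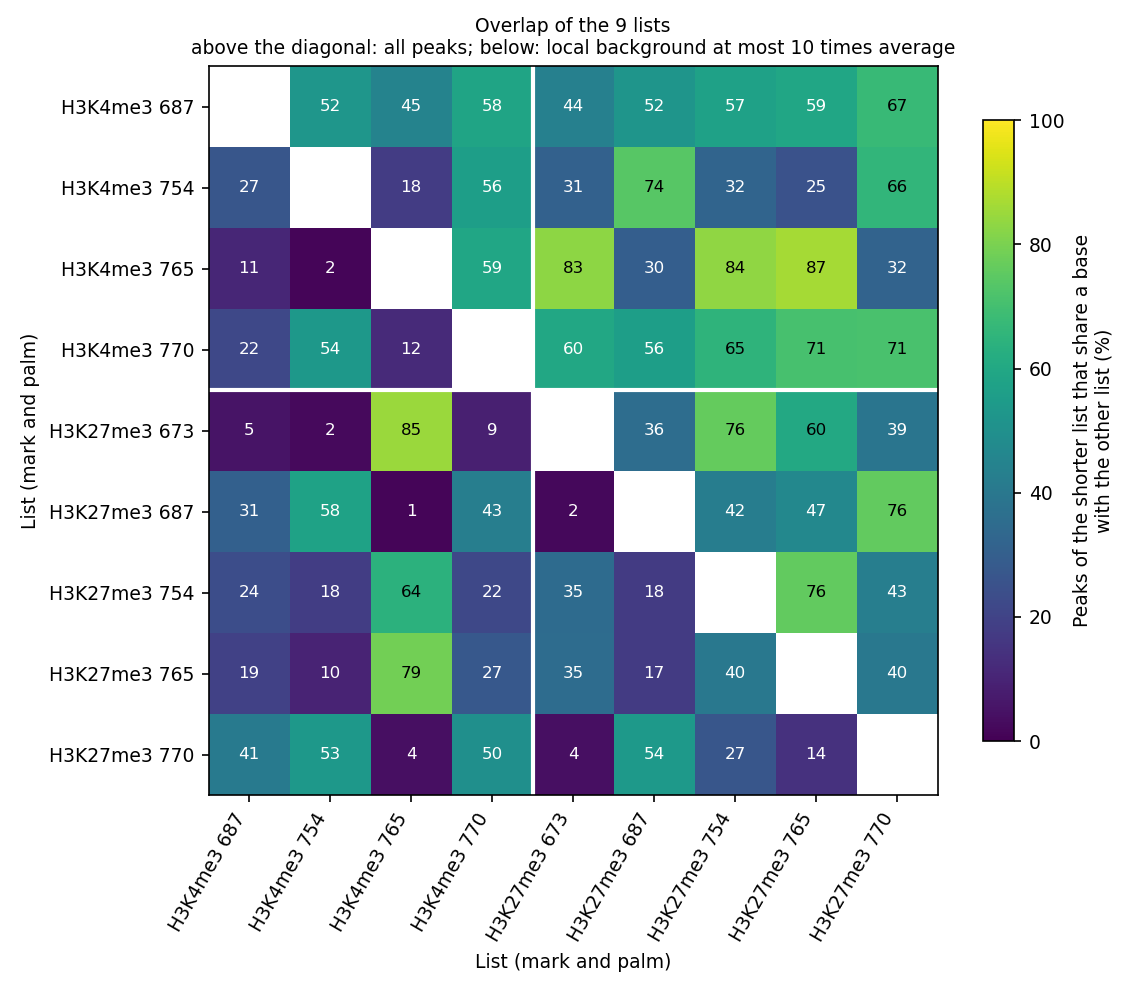
The grid gives, for each pair of the 9 lists, the percentage of the shorter list's peaks that share a base with the other list, for all peaks above the diagonal and for peaks with a local background of at most 10 times the average below it. White lines divide the marks. The H3K4me3 list of palm 765 is bright against H3K27me3 of palms 673, 754 and 765 both above and below the diagonal, and below it dark against H3K27me3 of palms 687 and 770 and against other H3K4me3 lists.

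Overlap of the marks within a palm was set beside overlap between palms. The H3K4me3 and H3K27me3 lists of 1 palm overlapped by 60.5% on average, and those of different palms by 57.2% over the 4 palms with both marks. The difference of 3.35 percentage points did not pass (one-sided exact permutation p = 0.375 over the 24 pairings of palms, the smallest possible being 0.0417). It was −12.5 points without palm 765 and 17.5 points without palm 754.

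Within each palm, peaks of both marks were merged into regions wherever they shared a base. Palm 687 had 614 regions, of which 142 had H3K4me3 only, 144 both marks and 328 H3K27me3 only. Palm 754 had 1656 regions, with 894 of H3K4me3 only, 246 of both and 516 of H3K27me3 only. These palms had the smallest shares of regions with both marks, at 23.5% and 14.9%. Palm 765 had 3954 regions, with 2613, 1160 and 181 in the same classes, and palm 770 had 1085, with 167, 381 and 537. Both marks were present at 29.3% and 35.1% of their regions. In palm 765 most H3K27me3 regions also had H3K4me3, whereas in palm 770 most H3K4me3 regions also had H3K27me3.

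Counted by peaks, 154 of 296 H3K4me3 peaks had H3K27me3 in palm 687, or 52% (95% Wilson interval 46.3% to 57.7%). The share was 23.5% in palm 754 (21.1% to 26%), 33.2% in palm 765 (31.7% to 34.7%) and 71.2% in palm 770 (67.4% to 74.7%). In the other direction, 30.5% of H3K27me3 peaks had H3K4me3 in palm 687 (26.5% to 34.8%), 32.3% in palm 754 (29.1% to 35.7%), 86.6% in palm 765 (84.6% to 88.3%) and 41.5% in palm 770 (38.4% to 44.7%). Over the 4 palms the means were 45% ± 21.1 and 47.7% ± 26.3 (SD, n = 4), and without palm 765 they were 48.9% ± 24 and 34.8% ± 5.9 (SD, n = 3). The intervals cover counting error only, and the spread between palms was wider than any of them. In palms 687 and 770 the shorter H3K4me3 list had the larger share of its peaks in the other, and in palms 754 and 765 the shorter H3K27me3 list did.

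**Figure D3:**
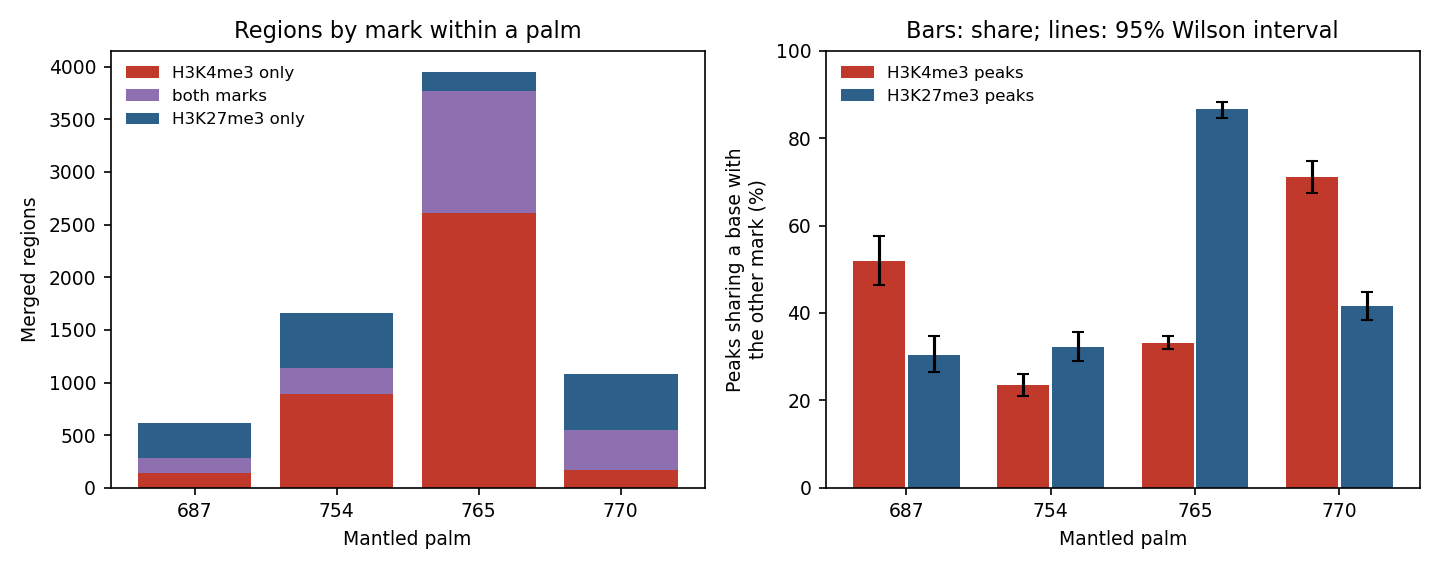
The left panel stacks, for each of the 4 palms with both marks, the number of merged regions with H3K4me3 only, both marks and H3K27me3 only. The right panel gives the percentage of H3K4me3 peaks and of H3K27me3 peaks that share a base with the other mark, with 95% Wilson intervals, and its tallest bar is the 86.6% of H3K27me3 peaks in palm 765.

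At regions with both marks, the pileups of the marks ranked in nearly the same order. Spearman's rho between the scaled pileups was 0.961 in palms 687 and 754 (over 144 and 246 regions), 0.969 in palm 765 (1160 regions) and 0.955 in palm 770 (381 regions). The same correlation of fold enrichments, in which local background is divided out, was 0.849, 0.62, 0.259 and 0.853. These are descriptions across regions, which are not replicates and whose pileups share the local background of the place. Fold is a summit value for H3K4me3 and a mean for H3K27me3. The H3K4me3 fold was the higher at 50% of shared regions in palm 687, 97.2% in palm 754, 95.5% in palm 765 and 70.1% in palm 770. The H3K27me3 peak was the wider at 66.7%, 53.7%, 20.3% and 73.8% of them, so that palm 765, unlike the other 3 palms, had the wider peak in H3K4me3 at most shared regions.

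Peaks that shared a base with the other mark were wider than those that did not, in both marks and all 4 palms. For H3K4me3 the medians with and without H3K27me3 were 350 and 301 bp in palm 687, 408 and 326 bp in palm 754, 653 and 420 bp in palm 765, and 330 and 281 bp in palm 770. For H3K27me3 with and without H3K4me3 they were 473 and 290 bp, 485 and 424 bp, 538 and 318 bp, and 497 and 334 bp in the same order of palms. A wider peak has more bases at which an overlap can fall, so width and overlap are not independent measures. In palm 765, 58.9% of H3K4me3 peaks over 1000 bp had H3K27me3, compared with 28.3% of the narrower ones.

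Fold enrichment of H3K4me3 peaks with and without H3K27me3 went in different directions among the palms. The medians were 3.1 with and 4.43 without in palm 687, 3.05 and 4.39 in palm 754, and 2.7 and 3.02 in palm 770. In palm 765 they were 6.04 with and 3.59 without. The median local background was higher with H3K27me3 in every palm, at 57.5 against 2.74 times the average in palm 687, 78.8 against 7.93 in palm 754, 4.2 against 2.44 in palm 765 and 46.3 against 17.4 in palm 770. The median fold of H3K27me3 peaks was lower with H3K4me3 in every palm. With and without, it was 3.69 and 3.99 in palm 687, and 1.71 and 2.03 in palm 754. It was 2.26 and 2.58 in palm 765, and 2.38 and 3.1 in palm 770.

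Restricted to H3K4me3 peaks with a local background of at most 10 times the average, the direction was the same in all 4 palms. The median fold with and without H3K27me3 was 8.94 and 4.89 in palm 687 (40 and 90 peaks), 9.5 and 5.54 in palm 754 (39 and 489 peaks), 7.79 and 4.39 in palm 765 (877 and 1879 peaks), and 5.35 and 4.41 in palm 770 (101 and 56 peaks). By fold, the low-background H3K4me3 peaks with H3K27me3 were the stronger ones in each palm, whereas over all peaks this held for the fold in palm 765 alone. By the −log10 q the peaks with H3K27me3 had the higher median over all peaks too, at 10.5 against 3.83 in palm 687, 20.9 against 7.43 in palm 754, 56.9 against 13.2 in palm 765 and 14 against 5.78 in palm 770. Local background is itself computed from pileup and fold, so the subset is not independent of the fold. Of low-background H3K4me3 peaks, 30.8%, 7.39%, 31.8% and 64.3% had H3K27me3 in palms 687, 754, 765 and 770, against 68.7%, 36.7%, 36.4% and 73.8% of those with higher background. For H3K27me3 peaks the shares with H3K4me3 were 23.2%, 18.1%, 79.4% and 23% at low and 37.1%, 36%, 90% and 54.2% at higher background. At low background the median H3K27me3 fold with and without H3K4me3 was 5.95 and 4.57 in palm 687, and 3.54 and 2.86 in palm 754. In palm 770 it was 4.91 and 3.95. Palm 765 went the other way, at 2.73 with and 3.29 without.

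**Figure D4:**
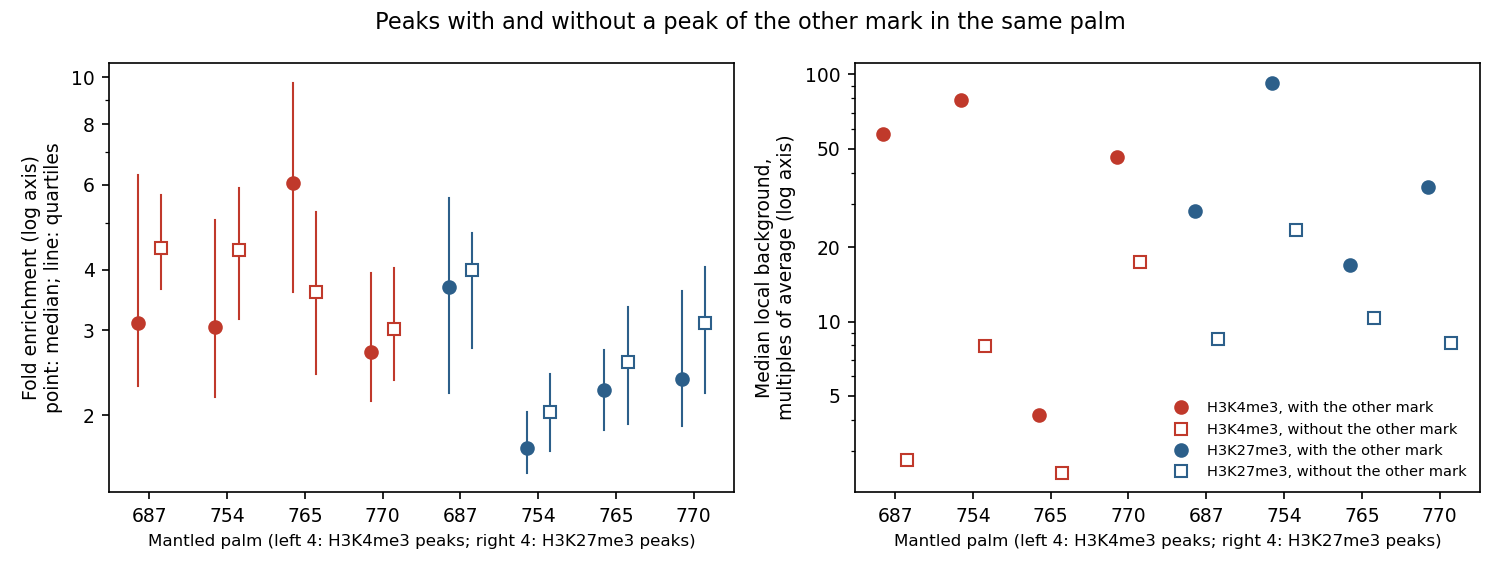
The left panel plots the median fold enrichment (points) and its quartiles (lines) of peaks with (filled circles) and without (open squares) the other mark, for H3K4me3 in red and H3K27me3 in blue, by palm and on a log axis. The right panel plots the median local background of the same peaks, which is higher with the other mark in every palm and both marks. Palm 765 is the only palm in which H3K4me3 peaks with H3K27me3 have the higher median fold, at 6.04 against 3.59.

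The 11035 peaks of the 9 lists were merged into 4959 regions on 3147 scaffold pieces. Both marks were found at 2252 regions (45.4%), H3K4me3 alone at 2282 (46%) and H3K27me3 alone at 425 (8.57%). Of the regions with H3K4me3 alone, 1833, or 80.3%, had their peak in the list of palm 765 only. Regions with both marks had a median width of 876 bp and a median local background of 13.4 times the average, against 362 bp and 1.85 times for H3K4me3 alone and 313 bp and 2.89 times for H3K27me3 alone. Region width spans all merged peaks, so a region with both marks always joined peaks of more than 1 list. Most regions with 1 mark alone had a peak in 1 list only, 2260 for H3K4me3 and 389 for H3K27me3. The difference in width is therefore in part built in by the merging. Of all regions, 53.4% had a peak in 1 list only. These shares rested on the H3K4me3 list of palm 765. Without it, 3135 regions were left, with both marks at 30.6%, H3K4me3 alone at 14.3% and H3K27me3 alone at 55.1%.

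Regions were also counted by recurrence within a mark. At least 2 H3K4me3 lists had a peak at 640 regions, 12.9% of all regions, and at least 2 H3K27me3 lists at 1279, or 25.8%. Both criteria were met at 546 regions (11%), which is 85.3% of the 640 and 42.7% of the 1279. There were 22 regions (0.444% of all) with at least 2 H3K4me3 lists and no H3K27me3. With at least 2 H3K27me3 lists and no H3K4me3 there were 36 (0.726%). The second count turned on the H3K4me3 list of palm 765, which had a peak at 947 of the 1279 regions. Without that list the counts were 12 and 604, or 0.383% and 19.3% of the 3135 regions left. Regions with at least 2 lists of each mark were then 89.5% of those recurrent in H3K4me3 and 27.2% of those recurrent in H3K27me3. The median local background was 28.4 times the average at the 640 and 19.3 times at the 1279, and 159 and 406 of them had at most 10 times. Of the 22, the list of palm 754 had a peak at 18, palm 765 at 10, palm 770 at 9 and palm 687 at 7. No region had 3 H3K4me3 lists without H3K27me3, and 5 (0.101% of all) had 3 H3K27me3 lists without H3K4me3.

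At the other end, 62 regions (1.25% of all) had a peak in all 4 H3K4me3 lists and 123 (2.48%) in all 5 H3K27me3 lists. All 9 lists had a peak at 52 regions (1.05%), on 46 scaffold pieces, which is 83.9% of the 62 and 42.3% of the 123. Each of the 52 had a local background over 10 times the average, with a median of 224 times. With peaks over 10 times the average set aside, no region had a peak in all 9 lists, which restates these background values and is not a further result. Of the 3595 regions that then remained, 24.1% had both marks. At a fold of at least 3, with palm 673 losing all its peaks, both marks were left at 14.6% of 3850 regions.

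By Fisher's exact test of the lists with and without a peak, 0 of the 4959 regions passed after Benjamini-Hochberg adjustment, which is 0% of those tested (smallest adjusted p = 0.912). At an unadjusted p under 0.05 there were 3 regions, 0.0605% of those tested, and each of them leaned towards H3K27me3. No region had a peak in every list of 1 mark and in none of the other. With 4 against 5 lists the smallest p is 0.00794, and 788 regions would have had to reach it for any to pass.

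**Figure D5:**
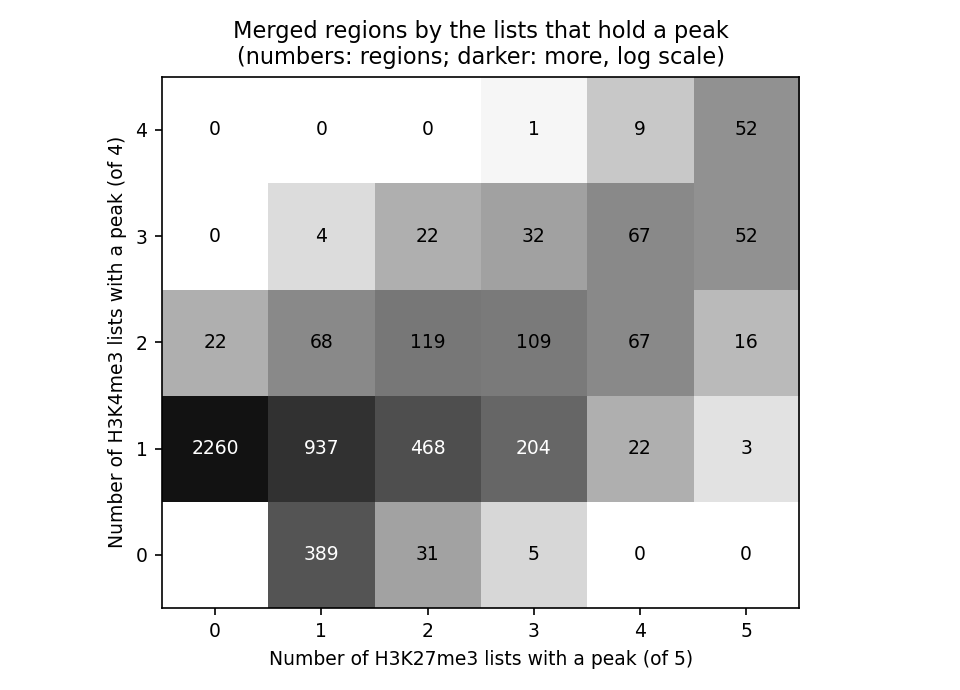
Each cell gives the number of merged regions by how many of the 5 H3K27me3 lists (horizontal axis) and of the 4 H3K4me3 lists (vertical axis) have a peak there, with darker cells for more regions on a log scale. Single-list H3K4me3 regions are the most frequent, at 2260, all 9 lists meet at 52 regions, and the corners for every list of 1 mark and none of the other are at 0.

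Among regions leaning towards H3K27me3, 3 tied at 5 H3K27me3 lists and 1 H3K4me3 list, and the one with the highest median fold lay on p5.00_sc00158_p0027 from 13936 to 14455. All 5 H3K27me3 lists had a peak there, with a fold enrichment of 1.85 in palm 673, 4.17 in palm 687, 3.33 in palm 754, 3.03 in palm 765 and 5.11 in palm 770. Of the H3K4me3 lists only that of palm 754 had a peak, with a fold of 6.35, the highest of the 6 (two-sided Fisher's exact p = 0.0476, adjusted p = 0.912). Its local background, 2.16 times the average, was low for a region shared by so many lists.

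The other regions with 5 H3K27me3 lists and 1 H3K4me3 list lay on p5.00_sc00202_p0005 from 41515 to 42546 and on p5.00_sc00202_p0004 from 14739 to 15761. Their values were nearly equal list by list. The H3K4me3 fold, in palm 765, was 4.67 and 4.63, and the H3K27me3 folds were 1.25 and 1.24 in palm 673, 2.32 and 2.3 in palm 687, 1.72 and 1.63 in palm 754, 1.73 and 1.74 in palm 765, and 1.91 and 1.79 in palm 770. Local background was 49.9 and 50.6 times the average. Reads of near-identical sequences cannot be assigned to 1 of them, and whether these stretches are such copies was not tested. The next regions, p5.00_sc00228_p0008 from 4470 to 4777 and p5.00_sc00139_p0027 from 8066 to 8703, had 3 H3K27me3 lists and no H3K4me3, at median folds of 4.95 ± 0.972 and 4.76 ± 0.767 (SD, n = 3). Background there was 1.05 and 1.01 times the average, and 5 regions tied on this count.

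Towards H3K4me3, 4 regions had 3 of 4 H3K4me3 lists and 1 of 5 H3K27me3 lists, each with a two-sided Fisher's exact p of 0.206. On p5.00_sc00048_p0037 from 1 to 869, the H3K4me3 fold was 2.63 in palm 687, 7.88 in palm 754 and 3.39 in palm 770, and the H3K27me3 fold in palm 770 was 3.7. On p5.00_sc00039_p0057 from 15913 to 18705 it was 3.97, 2.55 and 2.68 in palms 754, 765 and 770, with H3K27me3 at 1.33 in palm 673. The others were p5.00_sc00200_p0009 from 11130 to 11631 and p5.00_sc01858_p0001 from 9707 to 11323, with median folds of 2.04 ± 0.588 and 1.91 ± 0.358 (SD, n = 4 lists, 3 of H3K4me3 and 1 of H3K27me3). Background was 9.88 to 83.2 times the average at these 4 regions.

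The fifth region, on p5.00_sc00390_p0006 from 21442 to 21800, was the best of 22 tied regions with 2 H3K4me3 lists and no H3K27me3. Its fold enrichment was 30 in palm 754, the highest of any peak in the 9 lists, and 9.7 in palm 770, with 71 and 64 fragments at the summit. Local background was 2.44 and 7.12 times the average. It was the strongest H3K4me3 peak without H3K27me3 in both palms, and the H3K4me3 lists of palms 687 and 765 had no peak there.

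Of the regions with a peak in all 9 lists, p5.00_sc00001_p0869 from 6536 to 7062 had the highest median fold, 3.65 ± 2.42 (SD, n = 9 lists). This SD and those of the regions below pool summit values of H3K4me3 with peak means of H3K27me3. As 4 palms enter with both marks, they are not a spread over 9 replicates. Its H3K4me3 fold was 9.97, 5.2, 3.06 and 4.46 in palms 687, 754, 765 and 770. Its H3K27me3 fold was 1.47, 5.35, 3.51, 2.76 and 3.65 in palms 673, 687, 754, 765 and 770. Palm 687 was the highest in both marks and also had the shallowest library of each mark. The next were p5.00_sc00252_p0006 from 952 to 2038 at 3.52 ± 1.27, p5.00_sc00006_p0088 from 7551 to 7820 at 3.1 ± 0.932, p5.00_sc00087_p0065 from 15432 to 16797 at 3.03 ± 0.736, and p5.00_sc02514_p0001 from 15715 to 17853 at 2.71 ± 1.52 (medians, SD, n = 9). Background at the 5 was 18.3 to 161 times the average.

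The strongest peaks within palms lay both at shared regions and where the other mark had no called peak. Within a palm, a peak without the other mark is one with no called peak of that mark over it. A missing call does not show that the mark was absent, above all where the library was shallow, as in palm 687. In palm 687 the highest H3K4me3 fold, 21.7, was on p5.00_sc00029_p0090 from 5900 to 6226, without H3K27me3. The highest H3K27me3 fold there without H3K4me3 was 12.3, on p5.00_sc00010_p0098 from 825 to 1080, and both marks were high on p5.00_sc00030_p0025 from 8365 to 8646, at 15 for H3K4me3 and 17.7 for H3K27me3. That shared place had a local background of 29.1 times the average in the H3K4me3 library, against 1.24 times at the first.

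In palm 754 the strongest shared region, on p5.00_sc00185_p0008 from 10505 to 10918, had folds of 10.6 for H3K4me3 and 5.73 for H3K27me3, the latter being the highest of its list. The strongest H3K27me3 peak without H3K4me3 reached 4.69, on p5.00_sc00081_p0024 from 9204 to 9494. In that palm the strongest H3K27me3 peak therefore lay where H3K4me3 was present. In palm 765 the highest H3K4me3 fold, 28.1 over 1221 bp on p5.00_sc00371_p0004 from 5163 to 6383, was at a region with H3K27me3.

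Without H3K27me3, palm 765 reached an H3K4me3 fold of 20.3, on p5.00_sc00057_p0045 from 5027 to 5482. Its strongest H3K27me3 peak, at 5.79 on p5.00_sc00060_p0071 from 7312 to 7567, had no H3K4me3, and its strongest shared region, on p5.00_sc00149_p0040 from 11775 to 12610, had folds of 12.2 and 4.63. In palm 770 the strongest peaks of both lists were at shared regions. The H3K4me3 fold was 13.3 on p5.00_sc00072_p0029 from 12937 to 13174, and on p5.00_sc00512_p0005 from 491 to 802 the folds were 8.79 for H3K4me3 and 12.4 for H3K27me3. The strongest H3K27me3 peak of palm 770 without H3K4me3, on p5.00_sc00017_p0193 from 1 to 257, reached 8.38.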

How the data were processed

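Per the file headers, the authors ran MACS2 on paired-end fragments of each immunoprecipitated library with its own input as control, at a q cutoff of 0.05, a genome size of 221 Mb and a maximum of 1 fragment per position. H3K4me3 was called in narrow and H3K27me3 in broad mode. Tools named in the submitters' processing notes are MACS2 2.1.1.20160309, SAMtools 1.9, Bowtie2 2.2.5 and FastQC 0.11.3. Among the deposited columns, pileup is the signal (fragments stacked at a position), fold enrichment the ratio of that signal to local background, and q-values and p-values are on a −log10 scale. Pileup and fold refer to the summit of a peak in narrow mode and to its mean in broad mode. Peak widths in bp were deposited by the authors. Positions are 1-based, on scaffold pieces as the files name them. A genome build is not given in the sources used here, so genes, exons and sequences at the peaks were not examined.

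Pileup was scaled to 1000000 fragments. Local background was (pileup + 1) divided by the fold, less 1, over the average coverage at the caller's genome size. Log2 values of the lists were compared by exact permutation, with Benjamini-Hochberg adjustment over 4 tests, and regions by Fisher's exact test, in Python 3.11.15 with scipy 1.17.1. The scripts were tested on simulated data. Depth of the lists was 229258 to 10374962 fragments. Libraries of a palm were paired by the palm in the labels. Named regions are the 5 leaning most to each mark in the share of lists with a peak, the 5 in most lists (ties by Fisher p, then median fold), and the strongest shared and unshared peaks of each palm, with the widest peak of a list and the highest peak of a list where given. Counts of closest lists and merged regions, and the shares within palms, were repeated without palm 765 after the data were seen. The lists and this rule were chosen with earlier results of these data known.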

Additional observations from a re-analysis of the deposited data

Results flagged for a closer look

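Of 10 groups of values by list, 3 had a list set apart from its group by a gap that chance would give in about 5% of groups. The H3K4me3 list of palm 765 covered 2501420 bp, and its library held 3670206 fragments after duplicate removal, each far above the other H3K4me3 lists. The H3K27me3 library of palm 673 held 10374962 fragments, far above the other H3K27me3 libraries. Values without the H3K4me3 list of palm 765 are given beside the results on peak number, covered length, width, pileup, overlap and merged regions.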

How the results depend on the processing

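After adjustment, none of the comparisons of number, width, pileup and covered length passed under any alternative run. The overlap comparisons were not adjusted, and none of them passed either. In each run that tested regions, 0 passed after adjustment. The few lists limit that test, since in the main run 788 regions at its smallest p were needed for any to pass. The lowest unadjusted p was 0.0238 (two-sided exact permutation, adjusted p = 0.0952), for scaled pileup with the 296 strongest peaks of each list, at a ratio of 2.66. That ratio sets summit values of H3K4me3 against peak means of H3K27me3. Directions were less stable. At a fold of at least 3, where palm 673 had no peak and dropped out, the ratio of H3K4me3 to H3K27me3 was 1.09 for width and 2.36 for covered length. With the 296 strongest peaks of each list the width ratio was 1.19. With a −log10 q of 5 or more the pileup ratio was 0.9, and unscaled pileup gave 0.584. Covered length gave 1.07 at a background of at most 10 times the average, an alternative chosen after seeing the data, and 1.26 per fragment. Values per fragment take a measure to rise in proportion to depth. Peak number gave 1.95 per fragment, 2.53 at a fold of at least 3, 0.958 with peaks joined over 500 bp and 0.833 with the mark labels of palm 754 exchanged. By the Jaccard index the excess of same-mark overlap was 0.0152. Leaving out 1 list or palm at a time moved the ratio of peak number from 0.628 to 1.48, of pileup from 0.96 to 1.63 and of covered length from 0.358 to 1.02, and the excess of same-palm overlap from −12.5 to 17.5 points. The extremes came without the H3K4me3 lists of palms 765 and 687, and for same-palm overlap without palms 765 and 754. Peak number also gave 0.939 and 0.96 without the H3K4me3 and H3K27me3 lists of palm 754 and 0.852 without H3K27me3 of palm 687, and pileup 0.964 without H3K4me3 of palm 770. The cause was not tested. Paired by palm, as a block, the ratios were 1.15 for number, 0.863 for width, 1.03 for pileup and 0.817 for covered length. The exact sign-flip test over 4 palms cannot give a p below 0.125, so no paired comparison could pass. Both lists of a palm lay on the same side of their mark's mean in 3 of 4 palms for number, pileup and covered length. For width they did so in 4 of 4. Low depth limits the lists of palm 687, where 1 fragment is 4.36 per 1000000 for H3K4me3.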
